A study of Mus musculus with 6 samples.

Results

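Cullin-RING ubiquitin ligase genes of 2 families, the Kelch-like (Klhl) adaptors and the cullins (Cul), were followed in testes of wild-type and Prss54 knockout mice. The members were all probes for genes, control spots left out, whose gene name on the array starts with Klhl or Cul followed by a digit. They came to 42 of the 27376 gene names on the array, 34 Klhl genes with 58 probes and 8 Cul genes with 23 probes, or 81 of 41174 probes. All 42 genes are listed under the same symbol in RefSeq (assembly GRCm38.p6).

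Total RNA was taken from the testis of 3 wild-type (WT) and 3 Prss54 knockout (Prss54KO) male mice, 6-8 weeks old, on a mixed 129Sv/C57BL/6 background. Each testis was labelled with Cy3 from 0.5 ug of RNA and hybridised to 1 single-colour Agilent array of 60-base probes. Prss54 encodes a protein of the serine protease family, and the comparison asks which testis transcripts differ when it is missing. The labels give no litter and do not say which part of Prss54 was deleted, whether the knockout mice came from 1 founder line, or whether any animals were pooled. The RNA is from whole testis, so a lower signal from fewer cells of a type cannot be told apart from less RNA per cell.

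A ubiquitin ligase attaches ubiquitin to chosen proteins, which are often then degraded by the proteasome. In a cullin-RING ligase the cullin is the scaffold: at its C-terminal end it holds a RING protein, Rbx1 or Rnf7, that recruits the ubiquitin-loaded enzyme, and at its N-terminal end an adaptor that brings the substrate. Cul3 binds adaptors with a BTB domain, and most Klhl proteins are such adaptors, with a BTB domain for Cul3, a BACK domain and kelch repeats that hold the substrate. The ligase is switched on when the ubiquitin-like protein NEDD8 is joined to a lysine of the cullin. In the testis Klhl10 is the best known member: it is made in developing spermatids, it binds Cul3, and mouse males with 1 mutated copy are infertile.

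Probe sequences of members are shown to give the stretch of bases that each signal reads. A kelch repeat carries 2 adjacent glycines, so the letters GGNGGN, read on the probe's given strand in a reading frame without a stop codon, were searched for in every probe, and in the sequences below the capitals mark them in that frame. Coordinates are those of the array files (mm9).
Klhl10, chr11:100318015-100318074, plus strand: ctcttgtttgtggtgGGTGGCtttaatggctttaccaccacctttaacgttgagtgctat
Klhl8, chr5:104293269-104293328, minus strand: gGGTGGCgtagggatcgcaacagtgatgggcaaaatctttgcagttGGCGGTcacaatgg
Klhl9, chr4:88366233-88366292, minus strand: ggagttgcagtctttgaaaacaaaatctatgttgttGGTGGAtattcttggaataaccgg
Klhl41, chr2:69512730-69516138, plus strand: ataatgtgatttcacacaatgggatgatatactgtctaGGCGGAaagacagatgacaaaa
The letters were found in 6 of 58 Klhl probes (10.3%), of Klhl6, Klhl8, Klhl9, Klhl10, Klhl30 and Klhl41, in 0 of 23 Cul probes and in 1944 of all 41174 probes (4.72%). A match alone does not place a probe in a kelch repeat, as no protein sequences were compared. The Klhl41 probe spans more genome than its 60 bases, so it bridges an intron.

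Of the cullins, a Cul3 probe is shown because the Klhl adaptors bind its protein, and a pair of Cul1 probes because they share 21 bases, in capitals, and so are not separate measurements of that stretch.
Cul3, chr1:80268109-80268168, minus strand: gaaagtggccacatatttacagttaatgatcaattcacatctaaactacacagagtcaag
Cul1 (A_52_P664699), chr6:47470794-47470853, plus strand: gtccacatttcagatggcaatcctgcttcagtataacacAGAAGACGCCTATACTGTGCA
Cul1 (A_51_P335509), chr6:47470833-47473084, plus strand: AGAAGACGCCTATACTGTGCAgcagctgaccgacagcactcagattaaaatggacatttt
A pair of Cul3 probes, A_51_P415870 and A_52_P52311, likewise share 20 bases. In all, 6 member probes bridge an intron by their coordinates: those of Cul1, Cul2, Klhl15 and Klhl41, and 2 of Cul5.

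Signals below are the scanner software's processed signal after each array was scaled to a common 75th percentile, in intensity units. They compare 1 probe between arrays and say nothing of 1 probe against another. Differences are log2 values, Prss54KO minus WT, from a limma fit over the 28913 probes that 3 or more of the 6 arrays read well above background, and adjusted p-values are Benjamini-Hochberg over those probes. On every array between 66.2% and 74.8% of gene spots were well above background and 0 were saturated, and the correlation across probes between any pair of arrays was at least 0.994. The arrays sat on 3 slides: WT 1 and WT 2 on slide 3, WT 3, Prss54KO 1 and Prss54KO 2 on slide 2, and Prss54KO 3 on slide 1, so slide 2 alone holds both genotypes. At an adjusted p under 0.05, 0 of 28913 probes differed between the genotypes (0.00%), and 929 had an unadjusted p under 0.05 (3.21%).

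The Prss54 probe (chr8:98082993-98083052) gave 23189.9, 25151.1 and 25286.9 in WT and 7300.1, 9452.7 and 8265.6 in Prss54KO. Every knockout lay below every wild type, at 0.338 of its level (log2 -1.56, SE 0.10, limma adjusted p = 0.116). Its difference stayed between -1.66 and -1.47 under the alternatives run for it, while the limma adjusted p ran from 0.0058 with normexp background correction to 0.9999 without WT 1. It passed 0.05 with normexp and, at 0.0099, with a variance that follows intensity, and in no other. Since the deleted part is not given, whether this probe lies inside it is unknown and the remaining signal does not check the labels further.

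Defining markers of the labelled tissue were present: 10 of 10 spermatid genes and 10 of 10 spermatocyte genes were well above background on all 6 arrays, with a median difference of 0.02 in each list. Summed spermatid markers ran from 0.964 to 1.028 of the WT mean in WT and from 0.957 to 1.045 in Prss54KO. Of 7 epididymal genes 2 were tested, both with a probe well above background on all 6 arrays, at differences of 0.02 and 0.52. Their sums ran from 0.796 to 1.211 of the WT mean in WT and from 1.090 to 1.306 in Prss54KO. Lcn5, Lcn8, Crisp1 and Adam7 were well above background on 0 arrays. Fibroblast and matrix genes had a median of -0.54 over 6 genes, with sums of 0.889 to 1.145 in WT and 0.637 to 0.921 in Prss54KO. The 4 red cell genes had a median of -0.51, with sums of 0.581 to 1.483 in WT and 0.597 to 0.798 in Prss54KO, inside the WT range. Their part in the values below was not tested.

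Most of the ligase genes gave signal in whole testis. Of the 81 member probes 61 were well above background on all 6 arrays (75.3%, against 65.0% of all probes), 6 on some and 14 on none. All 8 cullin genes and 28 of 34 Klhl genes had at least 1 probe well above background on every array. Klhl6, known from B lymphocytes, Klhl14 and Klhl38 were not well above background on any array, and Klhl4, Klhl32 and Klhl40 were so on some. A total of 65 probes, 44 Klhl and 21 Cul, entered the test, and 16 did not.

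Between genotypes, 0 of the 65 member probes passed an adjusted p of 0.05, the same share as of all probes, with 0.9998 the smallest adjusted p of a member. At an unadjusted p under 0.05 there were 1 higher probe, of Klhl8, and 2 lower, of Klhl7 and Cul2. That is 4.62% of members against 3.21% of all probes tested (1.76% higher, 1.46% lower). Genotypes did not overlap for 6 probes that were higher in Prss54KO and 3 that were lower, 13.8% of members against 7.89% of all probes (4.32% higher, 3.56% lower). The median difference was 0.04 for Klhl probes, 0.01 for Cul probes and 0.01 for all probes tested. The Klhl median was 0.018 with slide as a fixed block, where that of all probes was 0.0012. Slides 1 and 3 each hold 1 genotype, so these medians rest on slide 2 alone, with 1 WT mouse. Differences of members ran from -0.45 to 0.38, and 57 of 65 lay within 0.2 of 0 (87.7%, against 89.6% of all probes).

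How small a change these arrays could show is given by the intervals. The distance from a member's estimate to either end of its 95% interval had a median of 0.20, from 0.12 for Klhl20 to 0.93 for a dim Klhl22 probe. For 55 of the 65 probes the whole interval lay within 0.5 of 0, and for 62 it lay within 1, a change of 2 times. Over all 28913 probes tested these counts were 24115 and 27984.

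**Figure D1:**
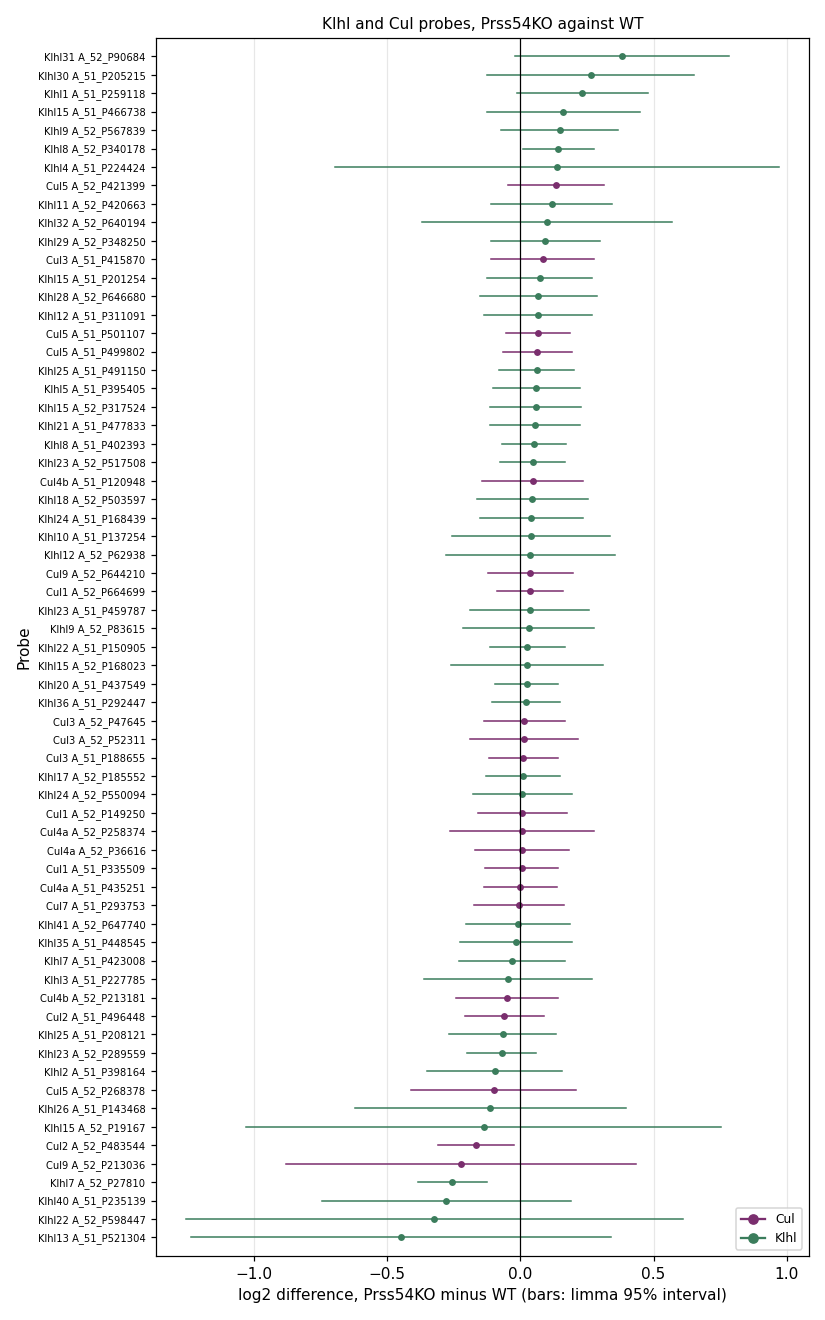
Log2 difference (x axis, Prss54KO minus WT) of each of the 65 tested Klhl and Cul probes (y axis), ordered by size; points are limma estimates and bars their 95% intervals, with 3 mice in each group. The points lie between -0.45 and 0.38, and only the intervals of the Klhl8, Klhl7 and Cul2 probes named in the text leave out 0.

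Cul3 is the scaffold that the Klhl adaptors bind, and 4 of its probes were tested. The probe shown above gave 10225.7, 10737.1 and 10649.3 in WT and 11175.9, 10836.9 and 9981.1 in Prss54KO. The knockouts spanned the wild types on both sides, with a difference of 0.02 (SE 0.06). A second probe, A_51_P188655, which the files place at no position, gave 26602.0, 27279.7 and 27206.5 in WT and 27930.7, 27743.7 and 26089.7 in Prss54KO. Its groups also overlapped, with a difference of 0.01 (SE 0.05, 95% interval -0.12 to 0.14). The dim overlapping pair differed by 0.08 and 0.01, and the groups overlapped at both.

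Cul1 is the scaffold of the SCF ligases, which use Skp1 and F-box proteins. Its 3 probes differed by between 0.00 and 0.04. For A_52_P664699 the WT signals were 2787.3, 2645.4 and 2790.9 and the Prss54KO signals 2799.3, 2797.5 and 2829.7. All knockouts lay above all wild types here, by 1.02-fold in the mean (log2 0.04, SE 0.05), while for the probe that shares 21 of its bases the values were 2662.4, 2671.3 and 2857.9 in WT and 2652.6, 2791.4 and 2773.1 in Prss54KO, which overlap.

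Cul2 pairs with elongins and receptors such as Vhl. It held the cullin probe with the smallest p, A_52_P483544, with 474.6, 512.2 and 469.7 in WT against 444.2, 428.1 and 424.6 in Prss54KO. The 3 knockouts lay below the 3 wild types, at 0.891 of their level (log2 -0.17, SE 0.06, 95% interval -0.31 to -0.03; limma unadjusted p = 0.028, adjusted p = 0.9998). Within slide 2 its difference was -0.11. The second Cul2 probe gave 373.4, 347.1 and 353.8 in WT and 357.1, 326.3 and 347.9 in Prss54KO, a difference of -0.06 (SE 0.06) with overlap.

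Cul5 takes receptors with a SOCS box. Its 4 probes differed by 0.13, 0.07, 0.06 and -0.10, so they did not share a sign. A_52_P421399 gave 1847.9, 1788.5 and 1974.0 in WT and 1938.1, 2002.7 and 2217.0 in Prss54KO, with WT 3 above the lowest knockout (log2 0.13, SE 0.07, limma unadjusted p = 0.121). On slide 2 alone its difference was -0.003. For A_51_P501107 the WT values of 1574.6, 1577.5 and 1503.8 all lay below the Prss54KO values of 1637.5, 1613.7 and 1623.3 (log2 0.07, SE 0.05). A_52_P268378 had 1 WT testis apart, with 1855.3, 1925.7 and 2524.9 in WT against 1964.5, 1829.5 and 2042.3 in Prss54KO. Within slide 2, which holds the high wild type, its difference was -0.41, and without that mouse it was 0.04.

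Cul4a and Cul4b, scaffolds that use Ddb1 and DCAF receptors, lay near 0. The Cul4a probe A_51_P435251 gave 9011.8, 9511.7 and 9098.3 in WT and 9495.9, 8838.3 and 9301.9 in Prss54KO, and the 3 Cul4a differences lay between 0.00 and 0.01. Another, A_52_P36616, gave 542.7, 532.8 and 611.1 in WT and 579.3, 539.4 and 573.2 in Prss54KO, with the knockouts inside the wild-type range. The X-linked Cul4b had differences of 0.05 (SE 0.08) and -0.05 (SE 0.08) at its 2 probes.

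Cul7, which assembles with Fbxw8, and its relative Cul9, which holds p53 in the cytoplasm, lie 122 kb apart on chromosome 17. One Cul7 probe gave signal, 2075.6, 2176.4 and 1935.9 in WT against 1941.5, 2143.2 and 2075.8 in Prss54KO, and overlapped (log2 -0.01, SE 0.07). The other two Cul7 probes were not well above background on any array. Cul9 differed by 0.04 (SE 0.07) at A_52_P644210. At A_52_P213036 its values were 215.8, 209.1 and 137.7 in WT and 116.0, 157.7 and 213.8 in Prss54KO (log2 -0.22, SE 0.27), and the 3 low arrays are those of slide 2. Its difference ran from -0.44 without Prss54KO 3 to -0.002 without Prss54KO 1.

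**Figure D2:**
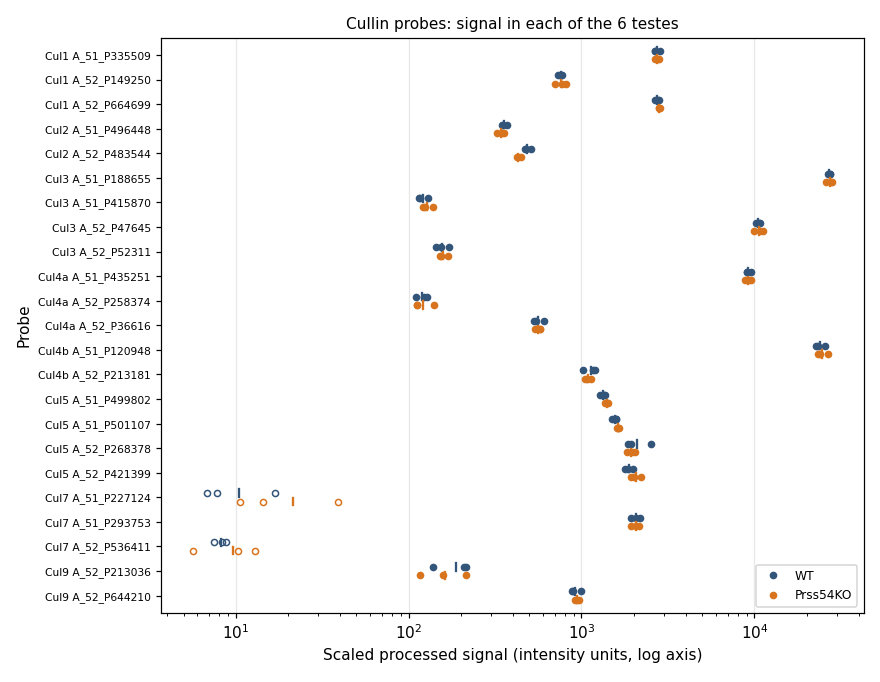
Scaled processed signal (x axis, intensity units, log axis) of each of the 23 cullin probes (y axis) in the 6 testes; each point is 1 mouse, the vertical tick is the mean of the 3 mice of a genotype, and open points mark probes not well above background on all 6 arrays. The genotypes lie on each other for most probes, and the 2 dim Cul7 probes are open.

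Klhl10, the spermatid adaptor, had a signal of 26996.1, 29283.2 and 31614.1 in WT and 32783.6, 32668.7 and 25342.5 in Prss54KO. The means were 29298 ± 2309 and 30265 ± 4263 (SD, n = 3 each), with the highest and the lowest array both among the knockouts. The difference was 0.04 (SE 0.12, 95% interval -0.26 to 0.34; limma unadjusted p = 0.755, adjusted p = 0.9998). The 3 arrays of slide 2, 1 WT and 2 Prss54KO, all lay above the 3 of the other slides, by 0.25 on the log2 scale, and within slide 2 the knockouts differed from the wild type by 0.05. Over the arrays left out in turn the difference ran from -0.02 to 0.16, the highest without Prss54KO 3. The summed spermatid markers also lay higher on the arrays of slide 2, at 1.03, 1.03 and 1.04 of the WT mean, against 1.01, 0.964 and 0.957 on WT 1, WT 2 and Prss54KO 3. Its neighbour Klhl11, with a probe 6.63 kb away, gave 920.8, 1082.7 and 1103.7 in WT and 1042.6, 1193.2 and 1131.0 in Prss54KO, and overlapped (log2 0.12, SE 0.09).

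Slides therefore stood beside genotype for some members, and the split by slide was counted in the same way. Arrays of slide 2 did not overlap those of the other slides for 9 member probes, 3 higher and 6 lower, which is 13.8% against 19.4% of all probes (9.96% higher, 9.42% lower). The higher ones were Klhl10, Klhl12 A_52_P62938 and Cul4b A_51_P120948. The lower ones were Klhl22 A_52_P598447, Klhl15 A_52_P19167, Cul9 A_52_P213036, Klhl26, Cul4a A_52_P258374 and Klhl17. The median absolute difference was 0.07 by slide and 0.06 by genotype over the members, against 0.08 and 0.06 over all probes tested. A split by slide was thus not particular to the members. The slide difference was larger than the genotype difference for 34 of 65 member probes. This was not counted over all probes, so it says nothing particular to the members either. Genotype and slide are not balanced, as slide 2 holds 2 of the 3 knockouts and 1 of the 3 wild types, so the contrasts share part of their arrays.

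**Figure D3:**
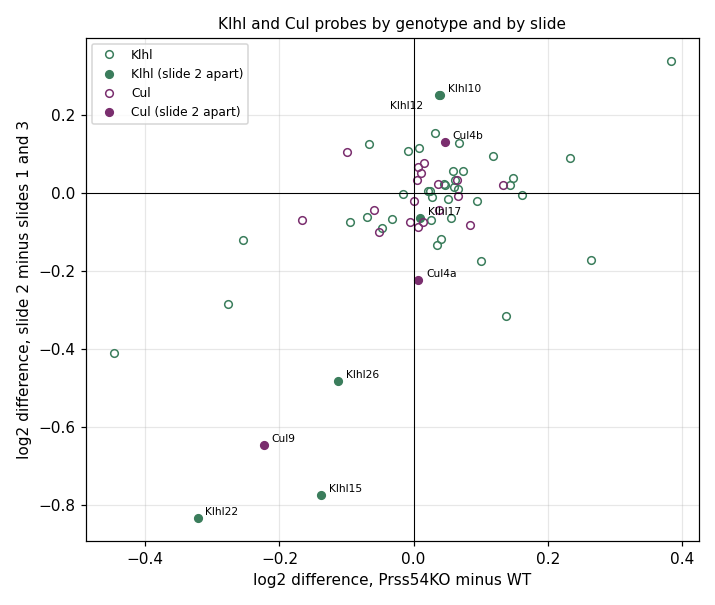
Log2 difference by genotype (x axis, Prss54KO minus WT) against log2 difference by slide (y axis, slide 2 minus slides 1 and 3) of the 65 tested probes, Klhl in green and Cul in purple; each point is 1 probe, and filled points with a gene name are the 9 probes whose slide 2 arrays do not overlap the others. Klhl10 and Klhl12 lie together at 0.25 by slide and 0.04 by genotype, and the lowest points by slide, Klhl22, Klhl15 and Cul9, reach -0.83, -0.78 and -0.65.

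Among the Klhl genes with more than 1 tested probe, Klhl8 was, with the main scaling, the only one whose probes were all higher in every knockout than in every wild type. How often this holds over all genes on the array was not counted, and both probes read the same RNA. The probe shown above gave 2270.9, 2421.1 and 2364.3 in WT and 2519.0, 2589.4 and 2685.4 in Prss54KO, which do not overlap. The level was 1.10-fold that of WT (log2 0.14, SE 0.06, 95% interval 0.01 to 0.28; limma unadjusted p = 0.040, adjusted p = 0.9998). Its second probe gave 4087.0, 4019.5 and 3895.8 in WT and 4134.4, 4126.9 and 4174.9 in Prss54KO, again without overlap and at a difference of 0.05 (SE 0.05). The gap there was narrow, and with median scaling the groups of this second probe overlapped, at a difference of 0.03. Within slide 2 the differences at the first and the second probe were 0.11 and 0.08.

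Klhl7, a gene mutated in retinitis pigmentosa, had the smallest p of all members. At A_52_P27810 the WT signals were 81.3, 80.9 and 76.4 and the Prss54KO signals 65.6, 67.9 and 66.5. The knockouts lay at 0.838 of the WT level with no overlap (log2 -0.25, SE 0.05, 95% interval -0.38 to -0.13; limma unadjusted p = 0.003, adjusted p = 0.9998). The other Klhl7 probe gave 1266.1, 1493.9 and 1305.4 in WT and 1250.1, 1367.2 and 1351.9 in Prss54KO, a difference of -0.03 (SE 0.08) with overlap. The low difference was thus seen at 1 of 2 probes, the dim one. It was -0.20 within slide 2, and with normexp background correction -0.11 (limma unadjusted p = 0.226).

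Klhl31, a gene of heart and skeletal muscle, had the largest positive difference, at 1 probe. Its other probe, A_52_P176999, was not well above background on any array. Its tested probe gave 481.4, 350.3 and 425.3 in WT and 580.5, 615.8 and 444.9 in Prss54KO, so that the lowest knockout lay below the highest wild type (log2 0.38, SE 0.16, 95% interval -0.02 to 0.78; limma unadjusted p = 0.058). The value ran from 0.26 to 0.53 when each array was left out in turn, lowest without WT 2 and highest without Prss54KO 3, and was 0.49 within slide 2. Klhl40 and Klhl41, which stabilise sarcomere proteins in skeletal muscle, lay lower: Klhl41 differed by -0.01 (SE 0.08) and Klhl40 by -0.28 (SE 0.19), the latter with 54.2, 66.2 and 53.8 in WT and 35.6, 56.1 and 54.2 in Prss54KO. The Klhl40 value ran from -0.39 without Prss54KO 2 to -0.07 without Prss54KO 1.

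Klhl1, an actin-binding member known from neurons, gave 72.4, 61.6 and 76.9 in WT and 78.7, 79.3 and 89.4 in Prss54KO. Every knockout lay above every wild type (log2 0.23, SE 0.10, limma unadjusted p = 0.060), while within slide 2 the difference was 0.04 and with normexp 0.09. Klhl30 gave 103.3, 101.8 and 98.3 in WT and 117.5, 98.6 and 154.6 in Prss54KO, and 1 knockout lay inside the wild-type range (log2 0.26, SE 0.16; 0.09 without Prss54KO 3).

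Klhl9, Klhl13 and Klhl21 are adaptors of Cul3 ligases that act on Aurora B in dividing cells. Klhl21 gave 2873.8, 3001.2 and 2816.3 in WT and 3067.1, 2783.2 and 3190.0 in Prss54KO and overlapped (log2 0.05, SE 0.07). At its probe shown above, which carries the GGNGGN letters, Klhl9 differed by 0.03 (SE 0.10). At A_52_P567839 it differed by 0.15 (SE 0.09), which within slide 2 was -0.005. The X-linked Klhl13 had the lowest difference of all members, -0.45 (SE 0.32), from 148.5, 70.9 and 69.5 in WT against 53.7, 80.2 and 67.0 in Prss54KO. It rests on WT 1: over the arrays left out in turn the difference ran from -0.63 to -0.09, with -0.09 when WT 1 was left out. Of the other 3 Klhl13 probes, 2 were not well above background on any array and A_51_P190312 was so on 1 Prss54KO array only, so no fold is given.

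Other adaptors have substrates known from other tissues. Klhl2 and Klhl3 bring WNK kinases to Cul3, and they differed by -0.10 (SE 0.10) and -0.05 (SE 0.13). Klhl12, whose known substrates include Dishevelled and a coat protein of transport vesicles, differed by 0.07 and 0.04 at its 2 probes. Klhl20, which acts on the kinase Dapk1, gave 773.1, 804.4 and 800.5 in WT and 802.1, 799.4 and 815.9 in Prss54KO, a difference of 0.02 (SE 0.05) with overlap. Klhl25, which acts on a translation repressor, differed by -0.07 and 0.06 at its 2 probes, and the actin-binding Klhl17 by 0.01 (SE 0.06). Klhl22, which acts on Plk1, differed by 0.03 (SE 0.06) at the probe present on all arrays and by -0.32 (SE 0.38) at a dim one that was well above background on 3 WT arrays and 1 Prss54KO array. The latter ran from -0.63 without Prss54KO 3 to 0.01 without WT 2. Klhl15, which acts on a regulatory subunit of protein phosphatase 2A, had 5 tested probes between -0.14 and 0.16.

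**Figure D4:**
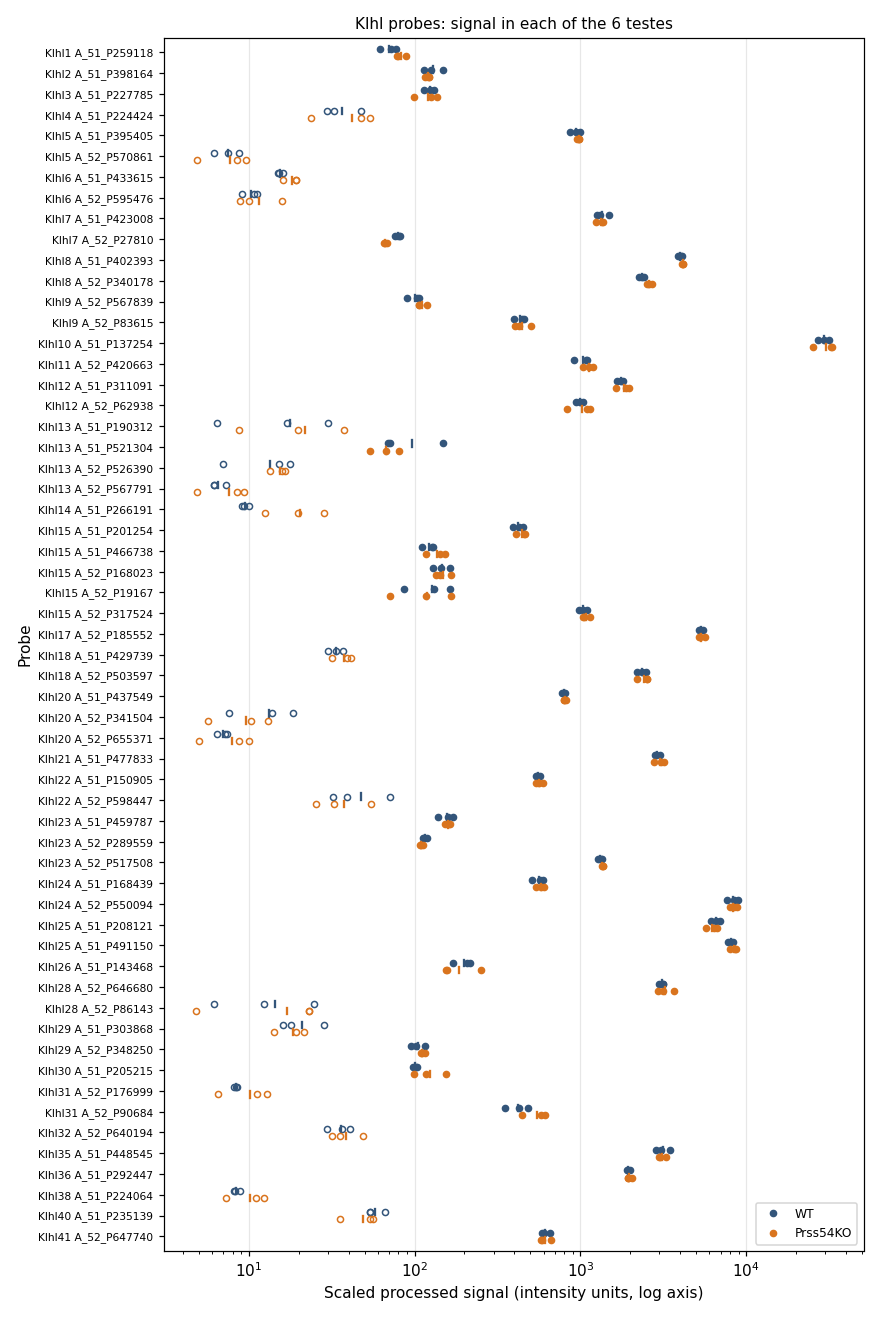
Scaled processed signal (x axis, intensity units, log axis) of each of the 58 Klhl probes (y axis) in the 6 testes; each point is 1 mouse, the vertical tick is the mean of the 3 mice of a genotype, and open points mark probes not well above background on all 6 arrays. At Klhl10 the lowest point and the highest point both belong to knockouts. At the Klhl7 probe A_52_P27810 and both Klhl8 probes the genotypes do not overlap, with a narrow gap at Klhl8 A_51_P402393.

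Different probes of 1 gene give a check that does not rest on a single spot, although they read the same RNA. Of 16 genes with more than 1 tested probe, 7 had differences above 0 at all of them, 2 had them below 0 and 7 had both signs. The 7 above 0 include Cul1 and Cul3, each with a probe pair that shares bases. The same count was not made over all genes. The range of a gene's differences had a median of 0.11 and was over 0.3 only for Klhl22. Klhl23 had both kinds of non-overlapping probe. A_52_P517508 gave 1274.8, 1347.4 and 1325.6 in WT and 1347.6, 1368.9 and 1361.1 in Prss54KO, which is higher. Its closest arrays nearly tied, at 1347.4 and 1347.6, and with median scaling its groups overlapped. A_52_P289559 gave 113.0, 119.5 and 113.3 against 109.2, 107.8 and 112.3, which is lower. The differences of these Klhl23 probes were 0.05 and -0.07.

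The spread among mice was low for most members and near that of all probes. The median SD of the members' log2 values was 0.095 in WT and 0.082 in Prss54KO. Over all probes tested it was 0.090 and 0.099. The coefficient of variation of the signal had a median of 6.67% over the 65 probes in WT and 5.77% in Prss54KO, and it was under 10% for 50 and 47 of them. It was over 25% for 4 probes in WT and 5 in Prss54KO, the highest being 46.9% for Klhl13 A_51_P521304 in WT and 40.7% for Klhl15 A_52_P19167 in Prss54KO. Array by array, the median Klhl probe lay -0.02, 0.03 and 0.01 from the WT mean in WT and 0.02, 0.03 and 0.08 in Prss54KO, and 46 of the 65 members had a difference above 0, against 15444 of all 28913 probes. Prss54KO 3 was the highest array for Klhl, at 0.08. For Cul it lay at 0.03, as did Prss54KO 2, and over all probes Prss54KO 3 lay at 0.02.

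Prss54 lies on chromosome 8, and so do 4 member genes, with probes 24.3 to 85.0 Mb from the Prss54 probe. Cul4a differed by at most 0.01, Klhl36 by 0.02 (SE 0.05), Klhl2 by -0.10 (SE 0.10) and Klhl26 by -0.11 (SE 0.21). For Klhl26 the values were 215.9, 205.9 and 170.3 in WT and 155.9, 153.8 and 250.0 in Prss54KO, and the 3 low arrays are again those of slide 2; the difference ran from -0.34 without Prss54KO 3 to 0.01 without Prss54KO 2.

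The remaining parts of cullin-RING ligases were read from 7 lists with 168 entries, of which 161 were genes tested, each by its brightest tested probe. At an adjusted p under 0.05, 0 of them were called, and at an unadjusted p under 0.05 there were 2, both higher, or 1.24% against 3.21% of all probes. Genotypes did not overlap for 15 genes (9.32%, against 7.89%), the median difference was 0.00, and 98.8% lay within 0.2 of 0. These shares are over 1 probe a gene, while those of all probes are over every tested probe.

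BTB adaptors of Cul3 outside the Klhl name had a median of 0.02 over 27 genes, from -0.12 to 0.17, and the 2 genes with the smallest p were Tnfaip1 at -0.10 (SE 0.05) and its relative Kctd13, which like it brings RhoA to Cul3, at 0.10 (SE 0.05). F-box receptors and their partners had a median of -0.01 over 23 genes. The muscle F-box gene Fbxo32 had the smallest p there, at 0.29 (SE 0.07, limma unadjusted p = 0.005, adjusted p = 0.9998), followed by Fbxo2, a receptor for glycoproteins, at 0.12 (SE 0.07), with its other probes reaching -0.07. Receptors of Cul2 and Cul5 had a median of 0.03 over 41 genes, with the SOCS box gene Asb15 at 0.12 (SE 0.06), its other probe at -0.12, and Socs1, a brake on cytokine signalling, at -0.15 (SE 0.08). Receptors of Cul4 had a median of -0.02 over 25 genes, with the DNA damage sensor Ddb2 at -0.20 (SE 0.08, limma unadjusted p = 0.052) and Crbn, the target of thalidomide, at 0.15 (SE 0.07), its other probe at -0.04.

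The shared machinery lay near 0 as well. RING subunits, neddylation enzymes and exchange factors had a median of -0.02 over 20 genes, with Nedd8 at -0.02 (SE 0.05) and the RING subunit Rbx1 at -0.09 (SE 0.06), where its other probes were nearer 0. Arih2, a ligase that works with neddylated cullins, was at 0.10 (SE 0.06). The COP9 signalosome, which removes NEDD8 from cullins, had a median of 0.01, with 8 of 9 genes above 0 and its subunit genes Cops4 and Cops7b at 0.07 (SE 0.05) and 0.05 (SE 0.06). Reported substrates of Klhl and Cul3 ligases had a median of 0.01 over 16 genes, and of these the mitotic kinase Plk1 was at 0.16 (SE 0.06, limma unadjusted p = 0.047, adjusted p = 0.9998) and Ppp2r5b, the substrate of Klhl15, at -0.10 (SE 0.07).

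**Figure D5:**
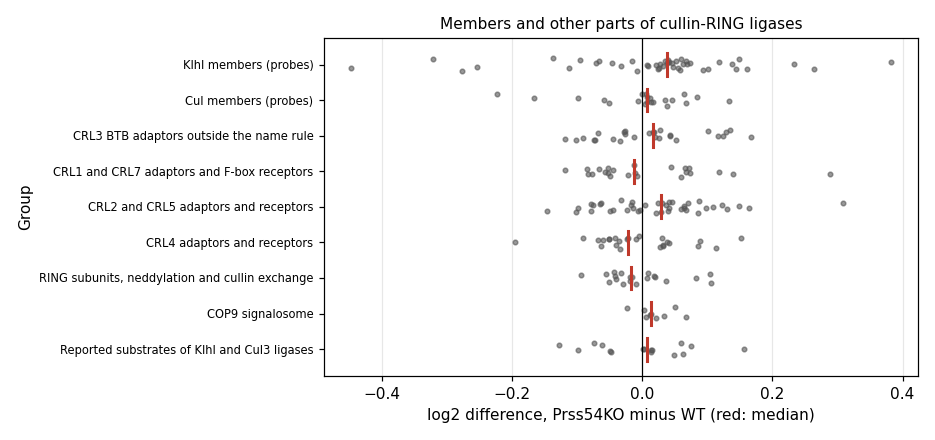
Log2 difference (x axis, Prss54KO minus WT) of the tested Klhl and Cul probes and of the genes in 7 lists of other cullin-RING ligase parts (y axis); each grey point is 1 probe or gene and the red line is the median of its group. Medians lie between -0.02 and 0.04, and the Klhl probes reach the widest range, -0.45 to 0.38.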

How the data were processed

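Total RNA of 6 testes was measured on 1-colour Agilent arrays. The deposited scanner files hold background-subtracted processed intensity per spot, made with Agilent Feature Extraction 10.7 per the submitters' processing notes (10.7.3.1 per the file headers), with probe positions on mm9. The authors' deposited value table holds log2 values of the same arrays and served as an alternative; the sources used here do not state how it was scaled. Outlier-flagged spots were left out, which touched no member probe, and spots of a probe averaged. The log2 of the processed signal minus each array's 75th percentile was fitted with limma 3.58.1 in R 4.3.3, genotype only, for probes that 3 or more of 6 arrays marked as well above background, and p-values are Benjamini-Hochberg adjusted over all of them. The fit was checked on simulated data. Printed signals are these values brought back to intensity with the mean 75th percentile. The number of arrays, 3 a genotype, limits the precision, and an exact permutation test of 1 probe cannot go below 0.1. Nothing says that the testes of a group came from separate litters.

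Members and gene lists were chosen with earlier results of these data known. Named were all Cul genes, Klhl10 and Klhl genes with a testis or known ligase role, the 6 probes a direction with the smallest p, members on chromosome 8, and in each list the 2 genes with the smallest p; Klhl11, Klhl23 and Nedd8 values and the slide split were added after their values were seen. Old names of 2 members were taken off the lists. Alternatives covered scaling, background, filters, probes of a gene, slide, variance model and leaving out each array.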

Additional observations from a re-analysis of the deposited data

How the results depend on the processing

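Under 20 alternatives, 0 Klhl or Cul probes passed an adjusted p of 0.05, and the smallest adjusted p of a member was 0.485, without WT replicate 3. Of the 65 probes 26 kept the sign of their difference in every alternative run for that probe (17 to 19 each, never the mean of a gene's probes), 18 higher and 8 lower, and 39 changed it in at least 1. The main counts were 1 higher and 2 lower at an unadjusted p under 0.05, and 6 higher and 3 lower without overlap. At an unadjusted p, 2 were higher with normexp background correction, with a filter on all 6 arrays, with an intensity trend and with array weights, and 0 were higher with 1 probe a gene, with the mean of a gene's probes and with slide as a fixed block. Lower ones came to 1 with normexp, 1 probe a gene, slide as a fixed block, slide 2 alone and the intensity trend, and to 0 with the mean of a gene's probes. Without overlap, 2 were higher with median scaling, normexp and the mean of probes (7.79%, 7.73% and 7.67% of all probes in either direction), 1 was lower with 1 probe a gene (7.79%), and on slide 2 alone, with 1 WT array, 25 were higher and 15 lower (59.1% of all probes). Leaving out each array gave 1 to 2 higher and 1 to 2 lower at an unadjusted p, 7 to 13 higher and 3 to 5 lower without overlap (12.7% to 23.0% of all probes), and a Cul median of -0.0055 to 0.034. The Cul median was 0.039 with normexp. The Klhl median of 0.039 was 0.018 with slide as a fixed block and on slide 2 alone, 0.020 with median scaling and 0.025 without WT replicate 1. Only slide 2 holds both genotypes, so the fixed block gives the same differences as slide 2 alone. Both rest on 1 WT mouse and are not separate checks of a difference. Over all probes, 1 passed an adjusted p of 0.05 with normexp and with slide as a fixed block, and 2 with the intensity trend. Same-numbered mice did not deviate together (correlations of -0.04, 0.02 and -0.15), and WT 3 with Prss54KO 1, both on slide 2, had 0.16. With 3 mice a genotype and slides of mixed make-up, these correlations cannot tell whether the numbers pair samples. The replicate block gave 1 lower probe at an unadjusted p under 0.05, where 3.92% of all probes passed in either direction. By the other detection mark 67 member probes were present on all arrays. The cause of these changes was not tested. The number of arrays limits the precision, and the widest intervals are those of Klhl22, Klhl15 and Klhl4 probes.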
